A study of Mus musculus with 76 samples.

Results

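The mRNAs of 56 translation initiation and elongation factors were followed in visceral white adipose tissue (WAT) and liver of mice that differ at *Fnip2*. The genes were chosen by name and level, as all whose symbol starts with Eif or Eef followed by a digit, without the eIF4E-binding proteins (*Eif4ebp* genes), the eIF2 kinases (*Eif2ak* genes) and pseudogenes named with -ps, and only where the normalized counts averaged 10 or more in the tissue. The rule itself used no difference between genotypes, but it was chosen with earlier results of these data known. In WAT, 61 genes had such a name and 56 of them reached the minimum, of 12798 genes that did so in all. In liver, 58 had such a name and 56 passed, of 11710 genes, and these were the same 56 as in WAT. *Eef1a2*, *Eif5a2*, *Eif4e1b*, *Eef1akmt2* and *Eef1akmt3* stayed below the minimum in WAT. All 56 genes are described below, and a few are enzymes that modify the elongation factors and not factors themselves.

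The study asked what a single-base change in the 3′ untranslated region of *Fnip2*, a partner of folliculin in amino acid signalling to mTORC1, does to metabolic tissues. *Fnip2* C/C mice are homozygous for a T-to-C replacement made with CRISPR/Cas9, and they also carry a G-to-C change nearby that destroys the PAM, so that the effects of both bases cannot be told apart. *Fnip2* T/T mice are homozygous for the unedited sequence. All mice were female, of C57BL/6 background and fed ad libitum, and the labels give neither their age nor the number of founders behind the knock-in line. WAT libraries came from 4 *Fnip2* C/C mice (numbers 590, 593, 599 and 638) and 5 *Fnip2* T/T mice (607, 608, 609, 657 and 658). Liver libraries came from 5 *Fnip2* C/C mice (590, 591, 592, 638 and 639) and 5 *Fnip2* T/T mice (607, 608, 657, 658 and 659), and 6 mice gave both tissues. Values of a group are given below in this order of mice.

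Translation of most mRNAs begins when the eIF4F complex, made of the cap-binding protein eIF4E, the scaffold eIF4G and the helicase eIF4A, recruits a small ribosomal subunit that carries eIF3, eIF1, eIF1A, eIF5 and the ternary complex of eIF2, GTP and initiator tRNA. eIF2B recharges eIF2 with GTP, and eEF1A, eEF1B and eEF2 then drive each step of elongation. mTORC1 controls this machinery by phosphorylating the 4E-BPs and through mRNAs that begin with a 5′ terminal oligopyrimidine (TOP) tract, among them the mRNAs of most elongation factors and of some eIF3 subunits.

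Libraries were made with a kit that reads the 3′ end of poly(A) transcripts, and they held 4180209 to 6277644 reads in WAT and 5583041 to 7523200 in liver. A normalized count is the number of reads of a gene divided by 1 size factor per library, and since each transcript gives reads at its 3′ end only and levels were not divided by length, counts are compared between mice and not between genes. *Fnip2* itself did not pass the test in either tissue, with 14.1 to 30.9 normalized counts in *Fnip2* C/C and 14.5 to 42.6 in *Fnip2* T/T WAT (log2 fold change -0.27, limma adjusted p = 0.58) and 133 to 197 against 49.2 to 134 in liver (0.63, limma adjusted p = 1.00). In WAT, all 12 adipocyte markers were measured and 8 of them were lower in *Fnip2* C/C. So were 4 of 5 tested erythroid markers and 2 of 3 tested hepatocyte markers. For comparison, 17% of all genes in this tissue passed as lower and 15.1% as higher. Other marker lists were mixed. Of 10 endothelial markers 3 fell and 2 rose, of 10 macrophage markers 3 fell and 1 rose. Of 10 fibroblast markers 1 fell and 2 rose, and of 8 smooth muscle markers 2 fell and 1 rose. Of 9 tested mesothelial markers 1 rose, and no ovary or lymphocyte marker passed. Summed levels of the adipocyte list were 127202 to 355939 in *Fnip2* C/C against 280083 to 490474 in *Fnip2* T/T. The erythroid list had 3046 to 4305 against 10332 to 13813, and the hepatocyte list 225 to 674 against 841 to 2902. Reads of snoRNA genes took 0.0444 to 0.171% of the *Fnip2* C/C and 0.0150 to 0.0292% of the *Fnip2* T/T libraries in WAT. The WAT of *Fnip2* C/C mouse 593 had a summed level of 24758 for 14 ovary genes, which did not exceed 348 in the other WAT libraries. In liver, all 10 hepatocyte markers were tested and none differed. The part of these shifts in the results on the WAT was not tested, and in whole tissue fewer cells of a type and less RNA per cell cannot be told apart.

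In WAT, 22 of the 56 genes differed between genotypes at an adjusted p under 0.05 (limma), 8 with higher and 14 with lower levels in *Fnip2* C/C mice. Of all 12798 genes tested, 32.1% passed the same test, 15.1% higher and 17% lower, so the share of translation factors called was near the background of this tissue and is no result about the factors by itself. The median log2 fold change, *Fnip2* C/C minus *Fnip2* T/T, was -0.060 over the 56 genes and 0.019 over all genes. The genotypes' libraries did not overlap for 18 of the 56 genes, against 26.1% of all genes. The 8 genes that rose were the elongation factors *Eef1a1*, *Eef1g* and *Eef2*, the initiation factor subunits *Eif3l*, *Eif2b5* and *Eif2s2*, the cap-binding *Eif4e2* and the methyltransferase *Eef1akmt4*. Among the 14 that fell were the eIF3 subunits *Eif3e*, *Eif3i* and *Eif3m*, the eIF2B subunit *Eif2b1*, the eIF2 subunit *Eif2s1*, the start-site factor *Eif1*, the eIF4G relative *Eif4g2* and the methyltransferase *Eef1akmt1*. The mRNAs of the eIF4F core, *Eif4e*, *Eif4g1* and *Eif4a1*, did not pass the test. In liver none of the 56 genes passed.

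**Figure D1:**
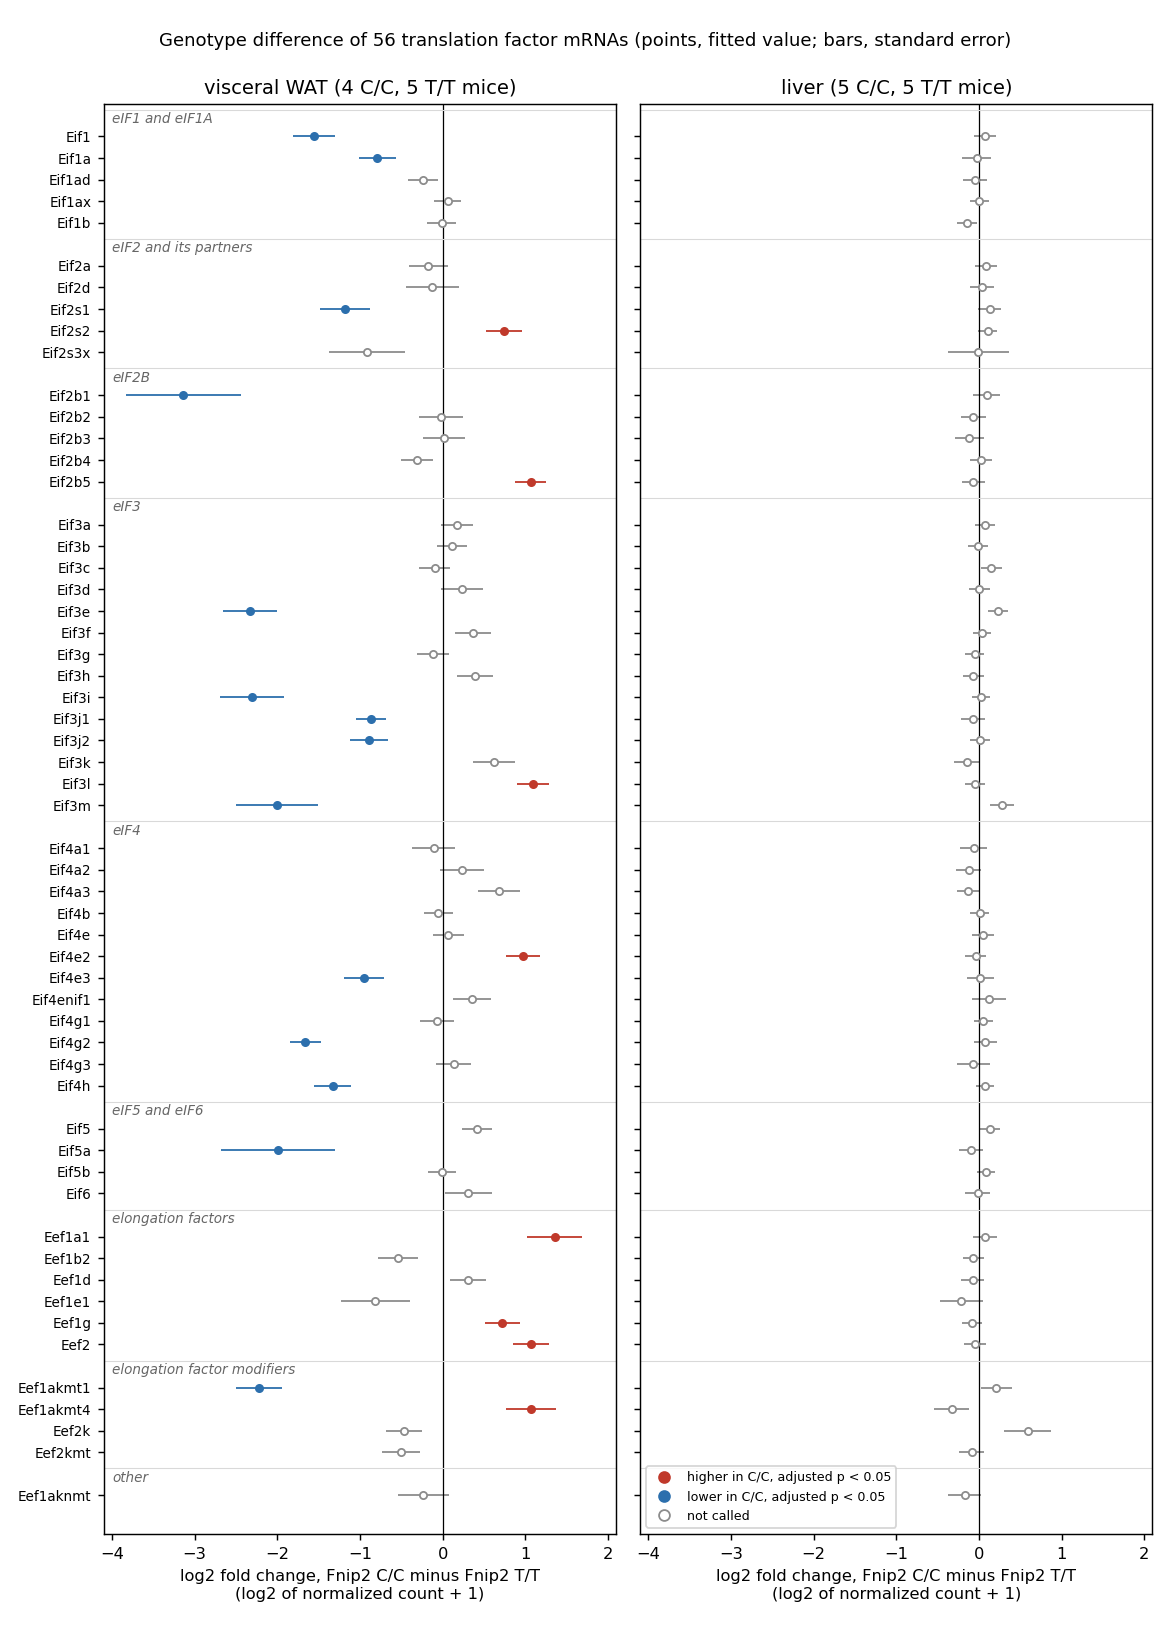
Fitted log2 fold change of Fnip2 C/C over Fnip2 T/T mice, from log2 of normalized count + 1, for the 56 genes, ordered by role, in WAT (left) and liver (right), with bars for the standard error and filled points for genes at an adjusted p under 0.05. The 14 blue points and 8 red points of the WAT lie on both sides of 0 within eIF2, eIF2B, eIF3, eIF4 and the elongation factor modifiers, and all liver points are open and lie between -0.33 and 0.59.

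Of 6 elongation factors 3 were called in WAT, all with higher levels in *Fnip2* C/C, where 15.1% of all genes were called higher and 32.1% either way. Of the 3 not called, 2 had a negative log2 fold change. *Eef2*, the GTPase that moves the ribosome along the mRNA, had 7679, 13992, 9966 and 9824 normalized counts in the *Fnip2* C/C mice and 5046, 4559.9, 4934, 4442 and 5153 in the *Fnip2* T/T mice. Every *Fnip2* C/C mouse was above every *Fnip2* T/T mouse, and mouse 593 was the highest. The means were 10365 ± 2635 in *Fnip2* C/C and 4827 ± 310.1 in *Fnip2* T/T (SD, n = 4 and 5, exact permutation p = 0.00794, two-sided, the smallest that 126 groupings allow), and the log2 fold change was 1.07 (SE 0.21) with a limma adjusted p of 0.0033. Groups that do not overlap put this permutation p at or near its smallest value. It therefore adds no support beyond the lack of overlap, which 26.1% of all genes showed in WAT. *Eef1a1*, which delivers aminoacyl-tRNA to the ribosome, had 1054, 1672, 1903 and 2043 counts against 915, 442, 339, 657 and 1112. The lowest *Fnip2* C/C mouse, 590, lay below the highest *Fnip2* T/T mouse, 658, so the groups overlapped. Its log2 fold change was 1.36 (SE 0.33) (limma adjusted p = 0.00897), and the exact two-sided permutation p was 0.0317.

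*Eef1g*, a subunit of the eEF1B exchange complex that recharges eEF1A with GTP, had 637, 1258, 914 and 773 counts in *Fnip2* C/C against 542, 464, 554, 455 and 629 in *Fnip2* T/T. The groups did not overlap, with a narrow gap between mice 590 and 658, and the log2 fold change was 0.72 (SE 0.21) (limma adjusted p = 0.019). The call was lost when mice 593 and 657 were left out together, where the log2 fold change was 0.49. The other eEF1B subunits did not pass the test, at log2 fold changes of 0.31 for the exchange factor *Eef1d* (adjusted p = 0.289) and -0.54 for *Eef1b2* (adjusted p = 0.103), and neither did *Eef1e1*, a component of the multi-tRNA synthetase complex, at -0.81 (limma adjusted p = 0.148). Reads of these 6 genes together took 0.228 to 0.467% of each *Fnip2* C/C library and 0.163 to 0.219% of each *Fnip2* T/T library, and the gap between mice 590 and 607 was narrow. The 0.467% was that of mouse 593, whose WAT held the ovary genes, and mouse 599 followed at 0.310%.

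The transcription start regions of some of these genes are shown because TOP mRNAs are defined by their first bases. Each line holds 30 bases of RefSeq sequence (GRCm38.p6), from 8 bases before an annotated start to 22 from it, 5′ to 3′ on the transcribed strand, with capitals for every run of at least 6 C or T bases that starts with C. The windows are chr9:78481703-78481732 on the minus strand for *Eef1a1*, chr10:81176623-81176652 on the plus strand for *Eef2*, chr15:79075215-79075244 on the plus strand for *Eif3l*, chr16:20498809-20498838 on the plus strand for *Eif2b5*, chr7:108934407-108934436 on the plus strand for *Eif3f*, chr11:100319941-100319970 on the plus strand for *Eif1*, chr12:78862064-78862093 on the plus strand for *Eif2s1* and chr5:124579110-124579139 on the minus strand for *Eif2b1*. The first 4 rose in *Fnip2* C/C WAT, *Eif3f* did not pass the test and the last 3 fell. These 8 windows are examples and do not stand for all genes of their direction. *Eef1akmt4*, *Eif2s2* and *Eif4e2*, which rose too, had windows without such a run. The window of *Eef1b2*, which did not pass the test, had none either.
Eef1a1: ccgCCCTCTTCCCgagggtgggggagaacg
Eef2: ggccgggcgttgacgtcagcggtCTCTTCC
Eif3l: gttCTTCTTCCgCTCTCTCCCacgggcttc
Eif2b5: CTTTCTCTCCCTgcaactacaccttcgcgt
Eif3f: taggCTCTCTCTCTTTCTCggcaagatggc
Eif1: cgtcacaggggcggctatataagtgaatac
Eif2s1: ttgggcgaagcgcacgctgaggagcttcgg
Eif2b1: gatttccggcgccgacgagtgacgccacgc

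Genes on chr18 were left out of this search. Such a run was found in 4 of the 7 genes higher in *Fnip2* C/C WAT that had a window. It was found in 0 of 7 of the lower genes with a window and in 9 of 30 that were not called. Only 7 of the 14 lower genes had a window, and *Eif3e*, *Eif3i* and *Eif4g2* had none. Of the 8 known TOP mRNAs named below, 4 had a window, while *Eif3e*, which fell, and *Eef1g*, which rose, had none. Of the 44 genes with a window 29.5% had a run, against 24.6% of the 27025 genes searched and 26% of those searched that were tested in WAT. These shares are a description, a match of letters is not a site, and annotated starts can miss the one used in WAT. Shares among all genes called higher or lower were not taken, so a link of runs with direction was not tested. The 8 genes listed as known TOP mRNAs did not move as 1 group. *Eef1a1*, *Eef1g* and *Eef2* rose, *Eif3e* fell, and *Eif3f*, *Eif3h*, *Eef1b2* and *Eef1d* did not pass the test, with a median log2 fold change of 0.38.

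The eIF3 complex, the scaffold that holds the small subunit and the mRNA together, contributed 14 genes, of which 5 fell, 1 rose and 8 did not pass, where 17% of all genes were called lower and 15.1% higher. *Eif3e*, a subunit of its octamer core that contacts eIF4G, had 72.9, 42.1, 78.0 and 35.1 counts in *Fnip2* C/C and 426, 178, 169, 345 and 352 in *Fnip2* T/T. All *Fnip2* C/C mice were below all *Fnip2* T/T mice, and among the latter, mice 608 and 609 were lower than the others. *Eif3e* had a log2 fold change of -2.33 (SE 0.33) at a limma adjusted p of 0.000791, and its exact two-sided permutation p was 0.00794. *Eif3i*, a subunit of the peripheral module with eIF3b and eIF3g, had 76.4, 57.1, 80.2 and 21.1 counts against 342, 164, 192, 273 and 428. Mouse 638 was the lowest *Fnip2* C/C mouse, and there was no overlap. Its log2 fold change was -2.31 (SE 0.39) with a limma adjusted p of 0.00155.

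*Eif3m*, another core subunit, was at the low end of detection, with 15.3, 7.49, 6.50 and 19.9 counts in *Fnip2* C/C and 80.4, 19.5, 24.6, 85.3 and 74.3 in *Fnip2* T/T. Mice 607, 657 and 658 stood far above the rest, while 608 and 609 were close to the *Fnip2* C/C mice, so the groups overlapped. *Eif3m* had a log2 fold change of -2.01 (SE 0.50) (limma adjusted p = 0.00927), and the call was lost without mice 593 and 657 together, at -1.63. *Eif3j1* and *Eif3j2*, near-identical copies of the loosely bound subunit that acts at the decoding site, fell by 0.87 and 0.89 on the log2 scale (limma adjusted p = 0.00439 and 0.0122). Leaving out mice 593 and 657 together ended the call of *Eif3j2*. The last 500 nt of *Eif3j2* matched *Eif3j1*, while those of *Eif3j1* matched no other gene. Reads from the matching stretch could be assigned to either in an uncertain way.

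*Eif3l* went the other way. It is also a subunit of the octamer core and binds next to eIF3k, and it had 862, 1111, 931 and 1422 counts in *Fnip2* C/C against 499.7, 468, 654, 466 and 424 in *Fnip2* T/T. All *Fnip2* C/C mice were above all *Fnip2* T/T mice. The means were 1082 ± 250.0 in *Fnip2* C/C and 502 ± 89.1 in *Fnip2* T/T (SD, n = 4 and 5, exact permutation p = 0.00794, two-sided), and the log2 fold change was 1.09 (SE 0.20) with a limma adjusted p of 0.00198. Its partner *Eif3k* had a log2 fold change of 0.62 without passing the test (limma adjusted p = 0.0759). The catalogue of subunits that did not pass also held the large scaffold subunits *Eif3a* and *Eif3c*, at log2 fold changes of 0.17 and -0.10, the RNA-binding *Eif3b* and *Eif3g*, at 0.11 and -0.12, the cap-contacting *Eif3d* at 0.24, and the paired MPN-domain subunits *Eif3f* and *Eif3h*, at 0.37 and 0.39. Within 1 complex the fitted differences thus ran from -2.33 for *Eif3e* to 1.09 for *Eif3l*.

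**Figure D2:**
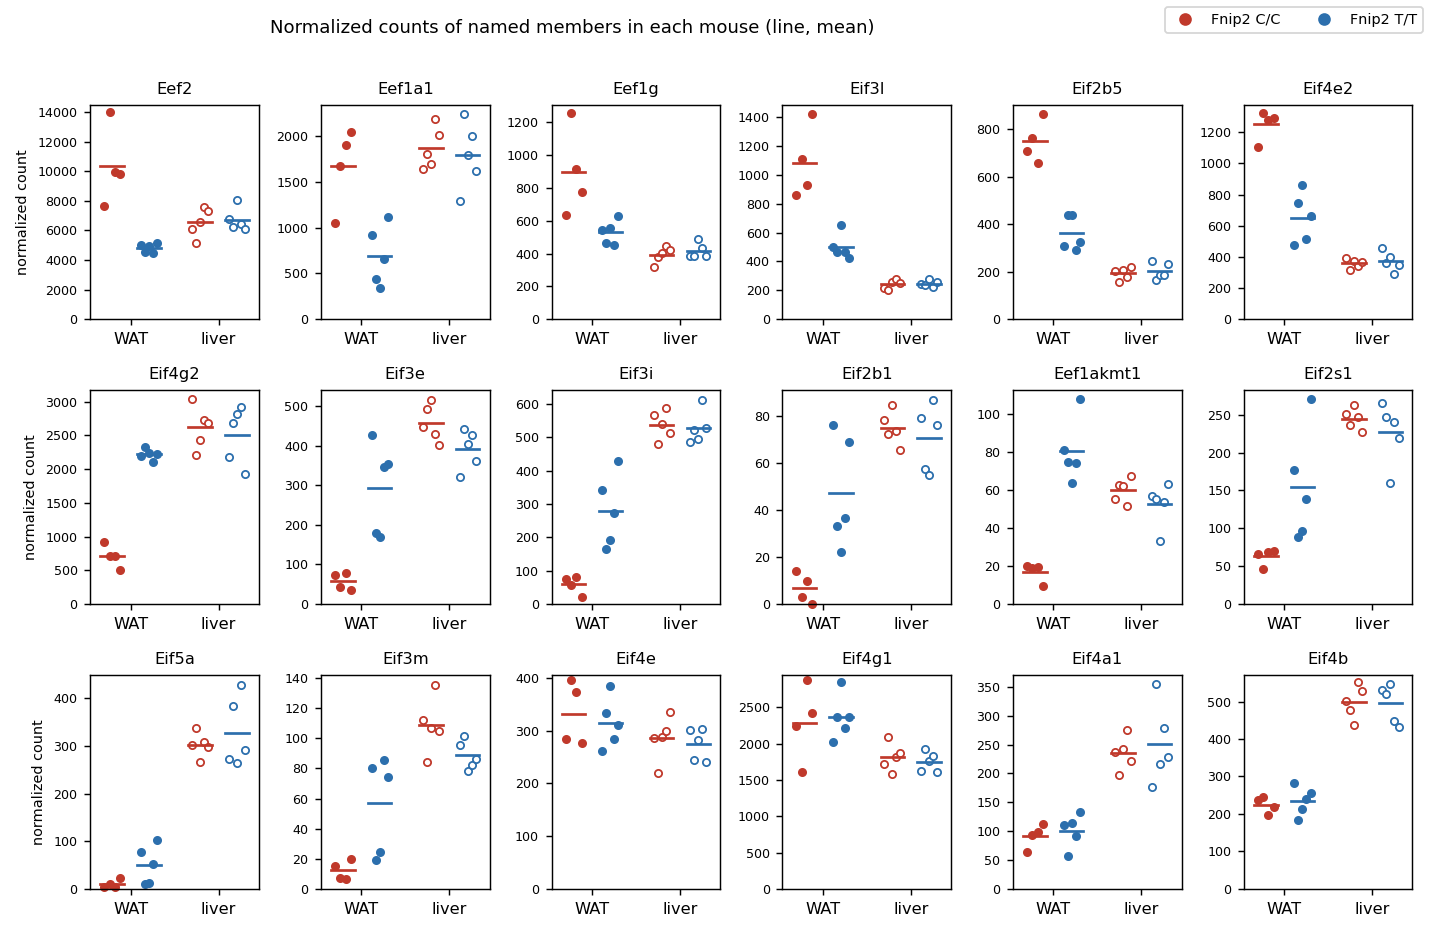
Normalized count of 18 of the genes in each mouse, with filled points for WAT, open points for liver, red for Fnip2 C/C, blue for Fnip2 T/T and a line at the mean of each group, on axes that start at 0. In WAT the red and blue points of Eef2, Eef1g, Eif2s1, Eif3l, Eif2b5, Eif4e2, Eif4g2, Eif3e, Eif3i, Eif2b1 and Eef1akmt1 do not overlap, while those of Eif4e, Eif4g1, Eif4a1 and Eif4b mix, and in liver they mix for all 18.

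eIF2 and its exchange factor eIF2B both held a subunit that fell and a subunit that rose. *Eif2s1* encodes eIF2 alpha, whose phosphorylation by the eIF2 kinases slows initiation, and it had 65.9, 45.9, 69.4 and 70.3 counts in *Fnip2* C/C against 176, 88.5, 97.1, 139 and 271 in *Fnip2* T/T. The groups did not overlap, but mice 608 and 609 came near the *Fnip2* C/C mice and 658 stood high. *Eif2s1* differed by -1.18 (SE 0.30) on the log2 scale with a limma adjusted p of 0.011, the exact two-sided permutation p was 0.0238, and the call was lost without mice 593 and 657 together. *Eif2s2* encodes eIF2 beta and had a mean of 2136 ± 452 in *Fnip2* C/C and 1278 ± 285 in *Fnip2* T/T, with overlapping ranges of 1529 to 2520.1 and 937 to 1634. Its log2 fold change was 0.74 (SE 0.22) with a limma adjusted p of 0.0229, and leaving out any of mice 599, 638, 607 or 657 ended the call. *Eif2s3x*, the gamma subunit that binds the initiator tRNA, had a log2 fold change of -0.92 and did not pass (limma adjusted p = 0.14), nor did the alternative tRNA carriers *Eif2a* and *Eif2d*, at -0.17 and -0.12.

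*Eif2b1*, the regulatory alpha subunit of eIF2B, had the largest fitted fall of the 56 genes with 1 added to each count. Its reads numbered 12, 3, 9 and 0 in the *Fnip2* C/C libraries, or 14.1, 2.81, 9.76 and 0 normalized counts, against 76.3, 33.1, 22.3, 36.7 and 69.0 in *Fnip2* T/T. A count of 0 in mouse 638 allows up to 3 reads, or 3.51 normalized counts, for counting error only. No *Fnip2* C/C mouse reached the lowest *Fnip2* T/T mouse, 609. Its log2 fold change was -3.14 (SE 0.69) with a limma adjusted p of 0.00561, and at these levels its size depends on the number added to each count. With 10 added it was -1.77, smaller in size than the -2.15 of *Eif3e*. *Eif2b5*, the catalytic epsilon subunit, had 707, 762, 659 and 866 counts against 308, 441, 438, 293 and 327. Every *Fnip2* C/C mouse was above every *Fnip2* T/T mouse by a wide gap, and the means were 748 ± 88.7 in *Fnip2* C/C and 361 ± 72.3 in *Fnip2* T/T (SD, n = 4 and 5, exact permutation p = 0.00794, two-sided). For *Eif2b5* the log2 fold change was 1.06 (SE 0.18) with a limma adjusted p of 0.00164. The remaining subunits *Eif2b2*, *Eif2b3* and *Eif2b4* lay at log2 fold changes of -0.024, 0.020 and -0.31 and did not pass.

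In the eIF4 group, the genes of the canonical cap-binding complex did not pass the test while relatives of them did. *Eif4e*, the cap-binding protein that 4E-BPs sequester, had 283, 397, 373 and 276 counts in *Fnip2* C/C against 262, 333, 385, 285 and 311 in *Fnip2* T/T, and *Eif4g1*, the main scaffold, had 2240.5, 1604, 2879 and 2423 against 2022, 2372, 2852, 2208 and 2359. Both overlapped widely, with log2 fold changes of 0.071 (SE 0.18) and -0.069 (SE 0.21) (limma adjusted p = 0.788 and 0.82). *Eif4a1*, the helicase, had 63.5, 93.6, 98.6 and 112 counts against 110.0, 57.4, 114, 91.2 and 133, and its cofactor *Eif4b* had 238, 246, 197 and 219 against 283, 183, 212, 239 and 257. These overlapped as well, at log2 fold changes of -0.11 (SE 0.26) and -0.050 (SE 0.17), and the signs of all 4 genes turned under at least 1 of the alternatives tried.

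*Eif4g2* (also known as DAP5), an eIF4G relative that lacks the eIF4E binding region and serves cap-independent initiation, had 916, 717, 715 and 509.5 counts in *Fnip2* C/C against 2198, 2330.0, 2235, 2100.3 and 2224 in *Fnip2* T/T. The *Fnip2* T/T mice lay close together and all *Fnip2* C/C mice were far below them. The means were 714 ± 166 in *Fnip2* C/C and 2217 ± 82.3 in *Fnip2* T/T (SD, n = 4 and 5, exact permutation p = 0.00794, two-sided), and the log2 fold change was -1.66 (SE 0.19) with the lowest limma adjusted p of the 56 genes, 0.000366. *Eif4e2* (4EHP), a cap-binding protein that represses the mRNAs it binds, had 1108, 1322, 1282 and 1291 counts against 474, 748, 858, 516 and 660.1. The groups did not overlap, with a log2 fold change of 0.97 (SE 0.20) and a limma adjusted p of 0.00379. *Eif4e3*, a further cap-binding relative, fell by 0.95 (limma adjusted p = 0.0103), and *Eif4h*, a helicase cofactor related to eIF4B, fell by 1.33 (limma adjusted p = 0.00152), both on the log2 scale and without overlap. The call of *Eif4e3* was lost without mice 593 and 657 together. The others did not pass, with log2 fold changes of 0.24 for *Eif4a2*, 0.68 for the exon junction protein *Eif4a3* (limma adjusted p = 0.0592), 0.13 for *Eif4g3* and 0.36 for the eIF4E transporter *Eif4enif1*.

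Relatives were also compared within each library as the ratio of their counts, which no size factor touches. The ratio of *Eif4e* to *Eif4e2* was 0.256, 0.300, 0.291 and 0.214 in *Fnip2* C/C WAT and 0.552, 0.445, 0.449, 0.552 and 0.472 in *Fnip2* T/T WAT, without overlap, and in liver it was 0.689 to 0.911 and 0.663 to 1.05. *Eif4g1* to *Eif4g2* was 2.45, 2.24, 4.02 and 4.76 against 0.920, 1.02, 1.28, 1.05 and 1.06 in WAT, again without overlap, and 0.566 to 0.951 against 0.624 to 0.834 in liver. *Eif1* to *Eif1b* ran from 0.305 to 1.28 in *Fnip2* C/C and from 1.57 to 2.45 in *Fnip2* T/T WAT, and overlapped in liver. The ratios of *Eif4a1* to *Eif4a2* and of *Eif4g1* to *Eif4g3* overlapped between genotypes in both tissues. Since each ratio repeats a gene tested above, no test was run on it. *Eef1a2*, with 0 to 5 reads, and *Eif5a2*, with 0 to 10 reads per WAT library, were too sparse for a ratio.

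**Figure D3:**
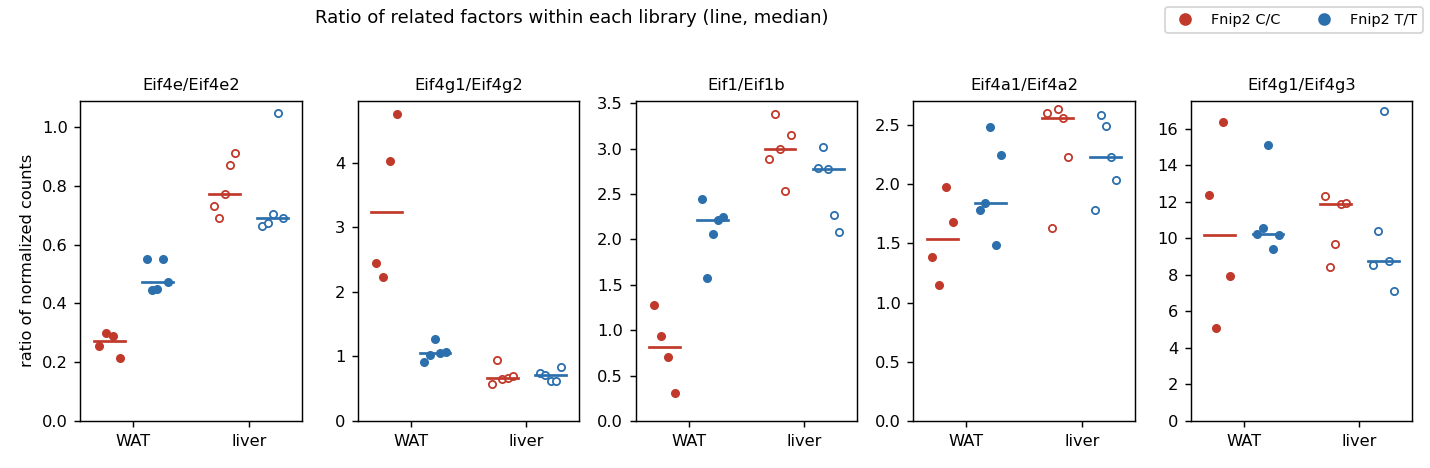
Ratio of the normalized counts of 5 pairs of related factors within each library, with filled points for WAT, open points for liver, red for Fnip2 C/C, blue for Fnip2 T/T and a line at the median, on axes that start at 0. In WAT, Eif4e/Eif4e2 and Eif1/Eif1b are lower and Eif4g1/Eif4g2 is higher in every Fnip2 C/C mouse, and the other pairs and all pairs in liver overlap.

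Among factors of start-site selection and subunit joining, 2 of 5 genes of eIF1 and eIF1A and 1 of 4 of eIF5 and eIF6 were called, beside 32.1% of all genes. *Eif1*, which guards the fidelity of start codon choice, had a mean of 235 ± 92.9 in *Fnip2* C/C and 655 ± 98.0 in *Fnip2* T/T (SD, n = 4 and 5, exact permutation p = 0.00794, two-sided), with ranges of 121 to 348 and 521 to 788 that did not overlap. Its log2 fold change was -1.56 (SE 0.26) with a limma adjusted p of 0.00137. *Eif1a* fell by 0.79 on the log2 scale (limma adjusted p = 0.0175), whereas the X-linked copy *Eif1ax* was at a log2 fold change of 0.059, *Eif1b* at -0.012 and *Eif1ad* at -0.24, and these did not pass. Without mice 593 and 657 together, *Eif1a* was no longer called. *Eif5a*, the hypusine-carrying factor that helps ribosomes through polyproline stretches, had 4.70, 9.36, 4.34 and 22.3 counts against 77.1, 9.73, 13.4, 52.6 and 103. Its groups overlapped, since 608 and 609 were as low as the *Fnip2* C/C mice. The log2 fold change was -1.99 (SE 0.69) with a limma adjusted p of 0.0442, the exact two-sided permutation p was 0.0635, and the call held in 9 of 19 settings tried.

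*Eif5*, the GTPase activator of eIF2, had 2916, 2158, 2658 and 2237 counts in *Fnip2* C/C against 1683, 2011, 2019, 1748 and 1832 in *Fnip2* T/T. The groups did not overlap, yet the log2 fold change of 0.42 (SE 0.18) did not pass (limma adjusted p = 0.0873). *Eif5b*, the GTPase of subunit joining, had a log2 fold change of -0.012, and *Eif6*, which keeps free large subunits apart from small ones, had one of 0.31, and neither passed.

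Enzymes that modify elongation factors also moved both ways. *Eef1akmt1*, a lysine methyltransferase of eEF1A, had 20.0, 18.7, 19.5 and 9.37 counts in *Fnip2* C/C against 81.2, 74.9, 63.6, 74.4 and 108 in *Fnip2* T/T. There was no overlap, and mouse 638 was lower than the other *Fnip2* C/C mice. The log2 fold change was -2.22 (SE 0.28) with a limma adjusted p of 0.000508. *Eef1akmt4*, a methyltransferase for another lysine of eEF1A, rose by 1.07 on the log2 scale (limma adjusted p = 0.0161) with overlapping ranges of 38.8 to 79.5 and 19.8 to 44.7, and its call was lost without mice 593 and 657 together. *Eef2k*, the kinase that inactivates eEF2 and is restrained by mTORC1, had 54.1, 36.5, 48.8 and 57.4 counts against 76.3, 58.4, 55.8, 81.3 and 69.0. These overlapped slightly, and the log2 fold change of -0.47 (SE 0.22) did not pass (limma adjusted p = 0.119). *Eef2kmt* and *Eef1aknmt*, methyltransferases of eEF2 and eEF1A, did not pass either, at log2 fold changes of -0.50 and -0.23.

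The 22 called genes were also laid out library by library. Among the *Fnip2* T/T mice, 608 and 609 were the lowest pair for 10 of the 14 genes that were lower in *Fnip2* C/C (71.4%), compared with 46.5% of the 2181 genes called lower in WAT, a pattern chosen for description after the values were seen. They were the lowest pair for 1 of the 8 higher genes, compared with 5.18% of the 1930 genes called higher. The same mice had the highest snoRNA shares of the *Fnip2* T/T WAT, 0.0292 and 0.0225%, but mouse 657 at 0.0218% was close to 609. Mice 607 and 658 had 0.0196 and 0.0150%. Whether these shares go with the factor levels was not tested. Without mouse 593, whose WAT held the ovary genes, 22 of the 56 genes were called, 21 of them among the 22. Without mice 593 and 657 together, 14 of the 56 genes were called, 5 higher and 9 lower, and 13 of them were among the 22. Every one of the 22 kept its direction in all settings in which it was tested, and 13 were called in each of them. Those were *Eef1a1*, *Eef2*, *Eif2b5*, *Eif3l* and *Eif4e2* among the higher and *Eef1akmt1*, *Eif1*, *Eif2b1*, *Eif3e*, *Eif3i*, *Eif3j1*, *Eif4g2* and *Eif4h* among the lower genes.

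**Figure D4:**
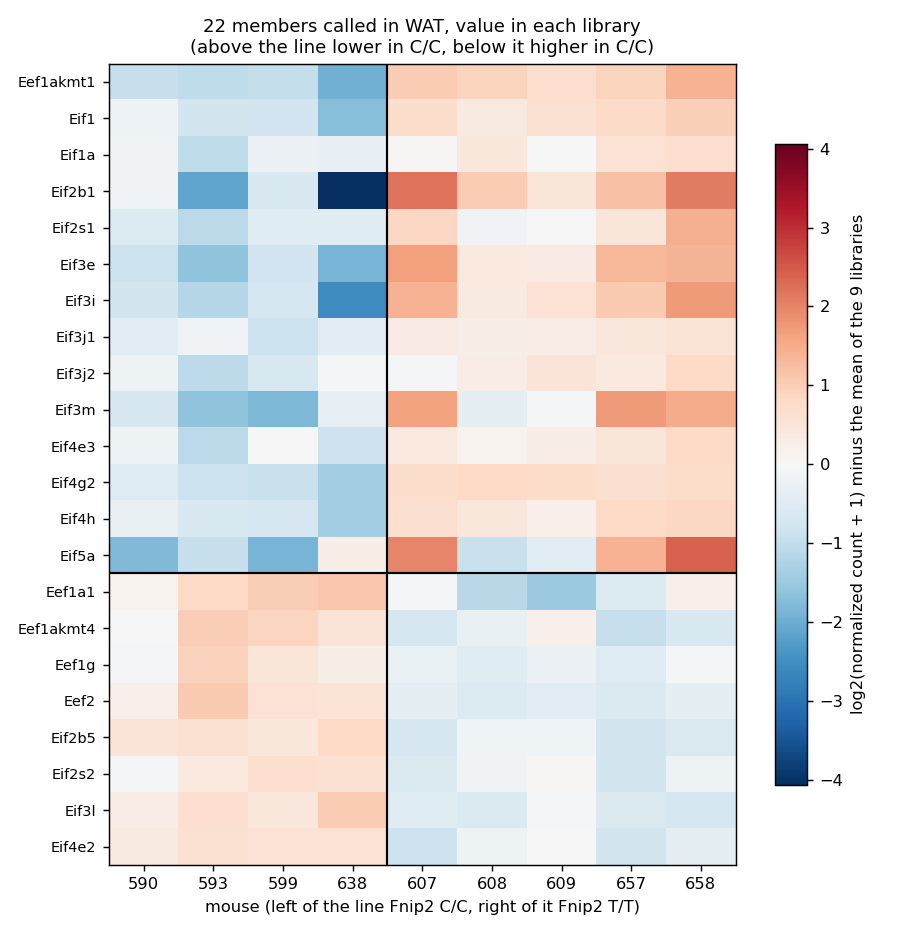
Level of the 22 called genes in each WAT library, as log2 of normalized count + 1 minus the mean of the 9 libraries of that gene, with Fnip2 C/C mice left and Fnip2 T/T mice right of the vertical line and genes lower in Fnip2 C/C above the horizontal line. Most cells of the lower genes are blue on the left and red on the right, mice 608 and 609 are pale blue for Eif2s1, Eif3m and Eif5a, and the deepest blue cell is Eif2b1 in mouse 638 at -4.06.

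Calls were also counted by level. Among genes with a mean of 10 to 100 normalized counts, 5 of 16 factors were called beside 25.3% of all genes, at 100 to 1000 it was 13 of 27 beside 40.7%, and above 1000 it was 4 of 13 beside 39.9%. By size, 15 of the 56 factors had a log2 fold change over 1 in size, as did 2749 of all 12798 genes, and on that scale the differences had an SD of 0.99 over the factors and 0.88 over all genes in WAT. In transcript structure (GENCODE vM21 on GRCm38, 55 of 56 factors matched), the 14 lower factors had a median coding length of 786 nt and a median 3′ UTR of 1257 nt, and the 8 higher ones had 1348.5 nt and 355.5 nt. Over all genes tested, the lower ones had medians of 1086 and 923 nt and the higher ones 1596 and 1066 nt. These are descriptions without a test.

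Some of the factors share their 3′ end with other genes, which makes their counts uncertain where reads could be assigned to either. Over the last 500 nt, 10 of 55 factors matched another gene at 95% identity or more over at least 75 nt. *Eef1a1* matched 14 genes, 11 of them pseudogenes, and *Eef1g*, *Eif4a3*, *Eif3e*, *Eef2*, *Eif3h*, *Eif3m* and *Eif6* matched pseudogenes too. The copies of *Eif3e*, *Eif3s6-ps1* and *Eif3s6-ps2*, had mean levels of 7.33% and 5.07% of that of *Eif3e* in WAT. *Gm13456*, a copy of *Eef1a1*, had 0.532% of its level and *Gm7658*, a copy of *Eif3m*, had 3.83%. Mir703, which also matched *Eef1a1*, had 1.90% of its level in WAT and 10.3% in liver. *Eef1d* shares its 3′ end with *Naprt*, which overlaps it.

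Genes around the factors were counted from hand-written lists, and these counts stand beside the 32.1% of all genes called in WAT. Of the 4E-BPs and eIF2 kinases, 6 of 7 were tested in WAT and 2 were higher in *Fnip2* C/C, the double-stranded RNA kinase *Eif2ak2* at a log2 fold change of 0.79 (limma adjusted p = 0.0219) and the amino acid sensor *Eif2ak4* at 0.55 (adjusted p = 0.0342). *Eif4ebp1* and *Eif4ebp2*, the repressors of eIF4E that mTORC1 phosphorylates, were at -0.50 and -0.21 and did not pass. Among partners, release and recycling factors, 22 of 24 were tested, with 4 higher and 4 lower. The higher ones were the termination factors *Etf1* and *Gspt1*, at 0.49 and 0.95, the eIF2-associated *Abcf1* at 0.70 and the hypusine enzyme *Dhps* at 0.79. The lower ones were the eIF4E kinases *Mknk1* and *Mknk2*, at -1.04 and -2.02, the poly(A)-binding protein *Pabpc1* at -0.77 and the reinitiation factor *Mcts1* at -1.16, all as log2 fold changes with limma adjusted p values under 0.05. Of 10 mitochondrial translation factors 2 were higher, *Mtif3* at 0.72 and *Gfm2* at 0.59. None of these genes was called in liver.

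In liver, 0 of the 56 factors passed the test with limma, and 0 had an unadjusted p under 0.05, against 0% and 1.97% of all 11710 genes in the same fit. With edgeR and with DESeq2, 0 of the 56 passed as well. Their log2 fold changes lay between -0.33 and 0.59, 28 above and 28 below 0, with 53 of 56 within 0.25 and an SD of 0.14 beside 0.22 over all genes. The median standard error was 0.14 for the factors, so a difference of the size of that of *Eef2* or *Eif4g2* in WAT would span several standard errors, whereas one of about the standard error was not detectable with 5 mice against 5. *Eef2k* had the lowest p, with 36.1, 50.7, 27.3, 27.9 and 31.7 counts in *Fnip2* C/C and 29.2, 11.5, 17.1, 35.1 and 26.0 in *Fnip2* T/T. The ranges overlapped, at a log2 fold change of 0.59 (SE 0.28), a limma adjusted p of 1.00 and an exact two-sided permutation p of 0.119. *Eif3m* followed at 0.28 (SE 0.15), with 112, 84.2, 107, 136 and 105 counts against 95.3, 101, 78.0, 82.4 and 86.3, and *Eif3e* at 0.23 (SE 0.12), with 446, 492, 516, 429 and 402 against 322, 442, 405, 427 and 361. Both overlapped, and both were on the side of *Fnip2* C/C, opposite to their difference in WAT.

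Genes with large differences in WAT overlapped between genotypes in liver. *Eef2* had 6103, 5154, 6572, 7609.9 and 7313 counts in *Fnip2* C/C and 6787, 6266, 8067, 6431 and 6089 in *Fnip2* T/T liver, and *Eif4g2* had 3044, 2203, 2430.3, 2732 and 2685 against 2174, 2677, 2812, 2927 and 1922. Their log2 fold changes were -0.045 (SE 0.13) and 0.075 (SE 0.14). The 56 factors together took 0.501 to 0.535% of the reads in *Fnip2* C/C and 0.478 to 0.549% in *Fnip2* T/T liver, against 0.726 to 1.09% and 0.708 to 0.768% in WAT. The 1.09% was that of mouse 593, and mouse 599 followed at 0.851%.

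Whether the genotype difference itself differed between tissues was tested as an interaction over all 19 libraries. It passed for 22 of the 56 factors, 9 more positive and 13 more negative in WAT, where 29.1% of 10403 genes passed, 11.5% and 17.7% by direction. The largest interactions were those of *Eif2b1* at -3.23 (limma adjusted p = 0.00356), *Eif3e* at -2.55 (5.37e-05), *Eef1akmt1* at -2.43 (3.22e-05) and *Eif3i* at -2.33 (0.000465) on the negative side, as log2 fold change in WAT minus that in liver. On the positive side stood *Eef1akmt4* at 1.40 (0.00695), *Eef1a1* at 1.28 (0.0141), *Eif3l* at 1.14 (0.00079) and *Eif2b5* at 1.13 (0.000958). *Eef2k*, which was called in neither tissue, had an interaction of -1.06 (limma adjusted p = 0.037), and *Eif4a3* one of 0.81 (0.0436). *Eif1a* and *Eif5a*, called in WAT, did not pass the interaction (limma adjusted p = 0.0573 and 0.0684).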

How the data were processed

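Libraries of WAT and liver RNA (QuantSeq 3′ mRNA-Seq FWD kit, stranded, oligo-dT primed) gave 76 run samples, 4 per mouse, which the deposited tables hold as 1 column per mouse. The submitters' processing notes name GRCm39, FastQC 0.11.9, HISAT2, SAMtools 1.12, HTSeq and DESeq2. The deposited values are signal values: the authors scaled the reads of each gene by a size factor of the library, separately per tissue. Undoing the division gave whole reads for 100% of the values, and these reads count no independent molecules. The WAT table has 1 further column without a label, which was not used.

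Genes with a mean of at least 10 were tested on log2(value + 1) with limma 3.58.1 in R 4.3.3 (trend and robust options), *Fnip2* C/C minus *Fnip2* T/T within each tissue, with Benjamini-Hochberg adjustment over all genes tested and a threshold of 0.05. Since 1 is added, fold changes of low genes can be understated and depend on the number added. They compare mean log2 values and are not ratios of mean counts. The interaction used all 19 libraries. Mean log2 values of each of the 56 genes were also compared by exact permutation of the mice, two-sided, with 126 groupings in WAT and 252 in liver (smallest p 0.00794), without adjustment. For genes named because their groups did not overlap, that choice puts the permutation p at or near its smallest value. p-values measure the spread between mice. Scripts were tested on simulated counts.

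Alternatives were edgeR 4.0.16 and DESeq2 1.42.0 on the recovered reads, pseudocounts of 0.5 and 10, a minimum mean of 50 or none, quantile normalization, equal totals, library weights, an adjusted p of 0.1, a term for mouse numbers below 610 against above 630, each mouse left out in turn and, chosen after seeing the data, mice 593 and 657 left out together. The joint removal was run in WAT only. For the interaction, each library was left out in turn, so the other tissue of a shared mouse stayed in the fit. Within both blocks of mouse numbers, all *Fnip2* C/C mice have lower numbers than all *Fnip2* T/T mice. The term therefore cannot separate genotype from anything that goes with number order inside a block. Transcript ends were compared with BLAST 2.17.0 on GRCm38 (GENCODE vM21), matched by symbol. Start regions were read from RefSeq (GRCm38.p6) without chr18, and 44 of the 56 genes had a window there. No coordinates of that build were joined to the tables. Genes with values in every mouse were *Eef1a1*, *Eef2*, *Eif4e*, *Eif4g1*, *Eif4a1*, *Eif4b*, *Eif2s1* and *Eif5a* for their roles, the 5 largest rises and 5 largest falls in WAT among called genes without overlap, and the 3 lowest p in liver; values by mouse of other genes were added after these were seen. The members and lists were chosen with earlier results of these data known.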

Additional observations from a re-analysis of the deposited data

Results flagged for a closer look

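*Eef1akmt1* in the WAT of *Fnip2* C/C mouse 638 had 9.37 normalized counts, far below the other 3 *Fnip2* C/C mice in relation to the range of its group. It was the only such value in 76 groups of libraries examined, where chance alone gives about 1 in 20.

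The genotype difference differed between the tissues by the interaction test for 14 of the 19 genes with values in every mouse, most of which were chosen for their differences in WAT or their p in liver, so the choice fixes this count in part. Over the 56 factors it passed for 22, where 29.1% of all genes passed. As log2 fold change in WAT minus that in liver, it was more positive in WAT for *Eef1a1* (1.28), *Eif3l* (1.14), *Eif2b5* (1.13), *Eef2* (1.12), *Eif4e2* (1.01) and *Eef1g* (0.80). It was more negative in WAT for *Eif2b1* (-3.23), *Eif3e* (-2.55), *Eef1akmt1* (-2.43), *Eif3i* (-2.33), *Eif3m* (-2.29), *Eif4g2* (-1.74), *Eif2s1* (-1.31) and *Eef2k* (-1.06). The tables of the tissues were normalized separately, and each difference was taken within 1 table.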

How the results depend on the processing

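The number of factors called in WAT was 22, and it was 18 to 26 under the other tools, scalings, filters, pseudocounts, weights and thresholds, 20 to 24 with 1 mouse left out and 14 without mice 593 and 657 together. In liver it was 0 in every setting. The interaction count of 22 became 20 with the mouse as a replicate block, all 20 being among the 22. The block pairs the tissues of the 6 shared mice (estimated correlation within mice -0.115). In the other settings run for the interaction, single libraries left out included, the count lay between 19 and 25. The interaction was not run with edgeR, DESeq2 or library weights, nor without mice 593 and 657 together, so its count under these is not known. The block applies to the interaction only, since within a tissue each mouse gave 1 library. The 22 called genes kept their direction in every setting in which they were tested. *Eif5a* was called in 9 of 19 settings and *Eif2s2* in 15 of 20, and *Eef1b2*, *Eif3k*, *Eif4a3* and *Eif5*, which were not called, passed in 4, 4, 3 and 2 of 20.

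Signs turned among differences near 0 that passed no test. In WAT, *Eif4e* was at -0.0056 with quantile normalization, -0.0056 with equal totals and -0.054 without mice 593 and 657, and *Eif4g1* at 0.11 with library weights and 0.069 without those mice. In liver, library weights gave 0.0057 for *Eef2* and 0.043 for *Eif4e2*, and quantile normalization gave -0.0033 for *Eif3i* and -0.0090 for *Eif4b*. The cause was not tested. With 1 mouse left out, log2 fold changes in WAT ran from -0.30 to 0.057 for *Eif4a1*, -0.14 to 0.021 for *Eif4b*, -0.020 to 0.15 for *Eif4e* and -0.19 to 0.091 for *Eif4g1*. In liver they ran from -0.035 to 0.16 for *Eef1a1*, -0.10 to 0.038 for *Eef2*, -0.14 to 0.0028 for *Eif2b5*, -0.012 to 0.076 for *Eif3i*, -0.10 to 0.019 for *Eif3l*, -0.18 to 0.073 for *Eif4a1*, -0.035 to 0.059 for *Eif4b*, -0.013 to 0.14 for *Eif4e*, -0.12 to 0.040 for *Eif4e2*, -0.015 to 0.14 for *Eif4g2* and -0.16 to 0.0085 for *Eif5a*. Over all alternatives of the named genes, 708 values kept direction and call, 35 changed sign and 13 lost the call.

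Limits are the 4 and 5 mice per group in WAT, 3′ counts that say nothing of protein or translation, and few reads for *Eif2b1*, *Eif3m* and *Eif5a*. The genotypes also differed in WAT cell markers, and their part was not tested.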
